A study of Mus musculus with 141 samples.

Results

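Subcutaneous inguinal white adipose tissue (iWAT) was compared between 4 inbred mouse strains known for obesity or diabetes on energy-rich diets (KK/HlJ, BTBR T<+> tf/J, C57BL/6J and DBA/2J, the prone strains) and 4 known for resisting diet-induced obesity (A/J, SWR/J, BALB/cJ and 129X1/SvJ, the resistant strains). The strains were chosen by name, and the class is what each strain is known for, not a weight measured in these mice. Each strain had 1 female and 1 male library, so the comparison used 16 libraries of the series' 67 female and 74 male ones, and 8 of its 82 strains. The libraries come from a survey of sex and strain differences in the fat of the Hybrid Mouse Diversity Panel (HMDP). All mice, prone and resistant alike, went from chow to the HF/HS diet, which is rich in fat and sucrose. Body weight, fat mass, glucose and a chow-fed group were not analysed here, so a strain's tissue before the diet cannot be told apart from its response to it. The strains are inbred lines that differ at many loci besides those that bear on weight. Both libraries of a strain share a genome, so the strain was the replicate (4 against 4). The p-values of the class comparison measure the spread between strains. With 1 library of each sex per strain, this spread also holds differences between single mice.

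Inguinal fat stores triglyceride in adipocytes, which take up fatty acids and glucose, build new fatty acids from carbohydrate, and release leptin in proportion to their size. As fat pads enlarge, macrophages typically gather around dying adipocytes and take on lipid-handling and matrix-degrading genes, drawn by chemokines such as *Ccl2*. In obese mice, mitochondrial and branched-chain amino acid genes of white fat are often found at lower levels.

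The libraries held 25.3 to 39.5 M (mega) estimated counts. The strain means were 29.3 ± 1.12 M in prone and 32.2 ± 4.67 M in resistant strains (SD, n = 4 each), a difference that an exact permutation test did not call (p = 0.314, two-sided). The 4 Y-linked genes summed to 6.31 to 11.6 CPM (counts scaled to a common library size) in the 8 female libraries and to 270 to 340 CPM in the 8 male libraries. *Dysf*, which carries a defective allele in A/J, was at 13.1 and 13.5 CPM in the A/J libraries and at 32.8 CPM or more in the other 14. The 5 adipocyte markers summed to 9301 to 26928 CPM in the prone and 5711 to 34558 CPM in the resistant libraries. None of the 5 was at 0, and the ranges overlapped. In bulk tissue, fewer cells of a type and less RNA per cell cannot be told apart.

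The feature that separated the classes most sharply was *Gm12191* (ENSMUSG00000083061), a processed pseudogene, that is, a copy of a spliced messenger RNA inserted elsewhere in the genome. It lies on the minus strand at chr11:49678710-49679057 (GRCm38). Its parent is *Rpl30* (ENSMUSG00000058600; chr15:34440505-34443640, minus strand), which encodes a protein of the large ribosomal subunit. The pseudogene spans 348 bases in 1 exon, the length of the *Rpl30* coding sequence from start to stop codon, and in the reference transcripts the copies differ at 1 base, G96A, counted from 1 at the start codon (99.7% identical). The stretches around it are shown because they hold the difference by which reads of the pseudogene and of its parent can be told apart. Both are read 5′ to 3′ along the transcript, with the base that differs in capitals. The first lies in an exon of *Rpl30* at chr15:34442676-34442736 and the second in the pseudogene at chr11:49678932-49678992.

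Rpl30: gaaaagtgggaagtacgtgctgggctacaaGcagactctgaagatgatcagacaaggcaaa
Gm12191: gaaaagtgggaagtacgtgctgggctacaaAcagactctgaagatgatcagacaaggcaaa

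*Gm12191* was at 0.874 CPM in the female and 0.602 CPM in the male library of BTBR T<+> tf/J, at 1.44 and 0 CPM in C57BL/6J, at 4.65 and 0.938 CPM in DBA/2J, and at 1.80 and 0.661 CPM in KK/HlJ. In the resistant strains it was at 89.95 and 81.55 CPM in 129X1/SvJ, at 130.7 and 83.4 CPM in A/J, at 187 and 130 CPM in BALB/cJ, and at 202 and 198 CPM in SWR/J. The lowest resistant library was thus far above the highest prone library, in both sexes. It was the only 1 of 17866 genes to pass an adjusted p of 0.05 (log2FC −6.70 ± 0.551 SE, prone minus resistant, adjusted p = 0.0321, edgeR's quasi-likelihood test), lower in the prone strains. This is 0.0056% of the genes tested, and 0% passed with higher values in the prone strains, where DESeq2 called 17 genes higher and 11 lower. At an unadjusted p under 0.05, 585 genes (3.27%) differed. The call rested on nearly all strains: it was lost when any strain but DBA/2J was left out, with log2FC from −6.87 to −6.48 and adjusted p from 0.0751 to 0.211. It was also lost in each sex alone (adjusted p = 0.1307 in females and 0.231 in males).

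*Rpl30* itself stood the other way around. Its levels were 174 to 377 CPM in the 8 prone libraries and 58.5 to 138.3 CPM in the 8 resistant libraries, without overlap (log2FC 1.49 ± 0.267, adjusted p = 1). The sum of both features was 174 to 378 CPM in prone and 141.9 to 337 CPM in resistant libraries, with medians of 265 and 216 CPM, so the sums overlapped. When the counts of both were summed into 1 gene before the fit, an alternative added after the data were seen, no gene passed in either direction. *Gm12191* held 0 to 1.70% of that sum in the prone libraries and 56.02 to 61.02% in each of the 8 resistant libraries. The authors' counting could split reads between these nearly identical sequences, so both levels are uncertain. Which base each strain carries was not tested.

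**Figure D1:**
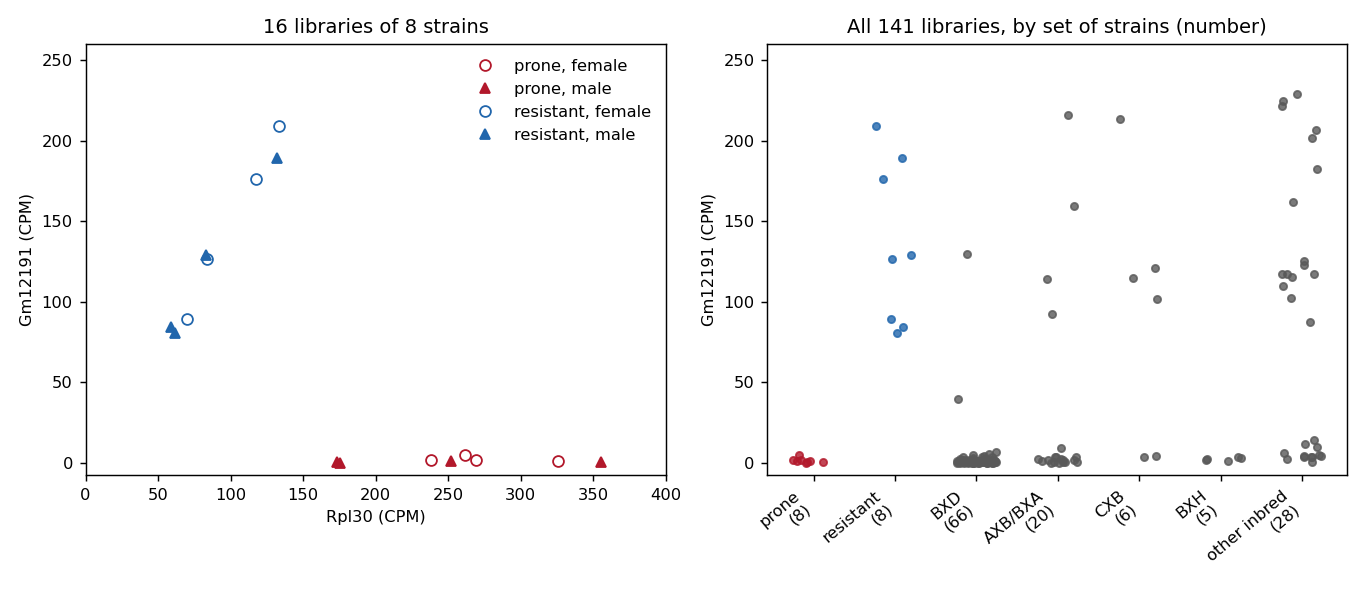
CPM of *Gm12191* against CPM of its parent *Rpl30* in the 16 libraries (left, circles female, triangles male), and CPM of *Gm12191* in all libraries of the series by set of strains, with the number of libraries in brackets (right, 1 point per library, spread sideways for visibility). The 8 prone libraries lie at or below 4.51 CPM and the 8 resistant libraries at or above 80.6 CPM on the scale set over the whole series.

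Strains outside the 8 allowed the pseudogene to be read in libraries that the choice of strains had not used. BXD strains descend from C57BL/6J and DBA/2J, both prone, whereas AXB and BXA strains descend from C57BL/6J and A/J. CXB strains descend from other substrains, C57BL/6By and BALB/cBy, which are not among the 8 strains. The founders of the BXD, AXB and BXA strains are among the 8, and their values had already been seen. The direction of a comparison between these sets could thus be foreseen, and it is not separate evidence on the classes. Over strains with a library of each sex, *Gm12191* was lower in the 26 BXD strains than in the 12 AXB/BXA and CXB strains (log2FC −5.91 ± 0.692, adjusted p = 7.91e-07), in a comparison in which 1.27% of 18446 genes were higher and 1.96% lower in BXD. AXB19/PgnJ, AXB19a/PgnJ and AXB19b/PgnJ, which share a line number, were each counted as a strain. Whether they are independent of each other was not tested. On the scale of the series, both libraries of AXB12/PgnJ, BXA2/PgnJ, CXB11/HiAJ and CXB6/ByJ were above 30 CPM, a line drawn after the values were seen, and both libraries of the other 8 AXB/BXA and CXB strains were at 30 CPM or below. Female and male libraries of a strain therefore fell on the same side in all 12. All 26 BXD strains were below the line in both sexes. Of the remaining BXD libraries, from strains with 1 sex only, those labelled BXD27/TyJ female and BXD6/TyJ female were at 39.55 and 129.7 CPM. Among 12 other inbred strains with both sexes, the female and male libraries fell on different sides in NZW/LacJ and PL/J. Whether these libraries and the 2 BXD libraries above the line carry the right labels was not tested. *Rpl30* was not called between the recombinant sets (log2FC 0.30 ± 0.163, adjusted p = 0.370).

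*Unc45a*, a chaperone that helps fold myosin, had the next smallest p. It is named because of its values. It was at 26.6 to 39.3 CPM in the 8 prone and at 41.7 to 57.9 CPM in the 8 resistant libraries, again without overlap in either sex. The difference was −0.73 ± 0.107 on the log2 scale and missed the adjusted threshold over strains (adjusted p = 1), whereas DESeq2 gave an adjusted p of 1.04e-07. In the recombinant strains *Unc45a* was lower in BXD than in AXB/BXA and CXB strains (log2FC −0.36 ± 0.0840, adjusted p = 0.00904). This direction, too, could be foreseen from the founders. It lies at chr7:80325292-80341005 on the minus strand.

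Leptin (*Lep*), the hormone by which adipocytes report their lipid store, did not follow the classes. Among prone strains it was at 561 and 1812 CPM in the female and male library of BTBR T<+> tf/J, at 624 and 4820 CPM in C57BL/6J, at 1279 and 1981 CPM in DBA/2J, and at 1135 and 3582 CPM in KK/HlJ. Among resistant strains it was at 3576 and 4289 CPM in 129X1/SvJ, at 446.5 and 3070 CPM in A/J, at 70.5 and 850 CPM in BALB/cJ, and at 35.8 and 205 CPM in SWR/J. 129X1/SvJ, counted as resistant, thus had the highest female level of the 8 strains and the second highest male level, while SWR/J and BALB/cJ had the lowest in each sex. Ranked from the highest in the series, the 129X1/SvJ libraries stood at 7 of 67 females and 8 of 74 males, and the SWR/J libraries at 65 of 67 and 72 of 74. The class difference was 0.29 ± 0.909 (adjusted p = 1), and it was −0.20 in females alone. *Mest*, an imprinted gene whose level tracks fat mass expansion, spanned 54.2 to 1416 CPM in prone and 8.25 to 710 CPM in resistant libraries (log2FC 0.92 ± 1.10). *Sfrp5*, a secreted Wnt inhibitor of enlarging adipocytes, ranged from 12.4 to 189 CPM and from 2.64 to 631 CPM (−0.92 ± 0.952, and 0.54 on log2(TPM + 1)). Of the 8 genes of the fat mass expansion list, none passed and the median log2FC was 0.01, or −0.24 without SWR/J, beside −0.0078 over all genes tested.

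Among 15 adipokines none passed, and the median log2FC was 0.06, or −0.10 without SWR/J. *Cfd*, which encodes the complement protease adipsin, had the smallest p of the list. In females it was at 396 to 873 CPM in the prone strains and at 911 to 2879 CPM in the resistant strains, without overlap, against 0.313% of all genes lower in this way in females. In males the ranges of 293 to 778 and 398 to 2800 CPM overlapped through BALB/cJ. The difference over strains was −1.37 ± 0.404 (adjusted p = 1). *Adipoq*, which encodes adiponectin, was at 838 to 2611 CPM in prone and 493 to 2967 CPM in resistant libraries (−0.24 ± 0.398, and 0.05 on log2(TPM + 1)), and *Apln*, which encodes apelin, differed by 0.77 ± 0.331.

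**Figure D2:**
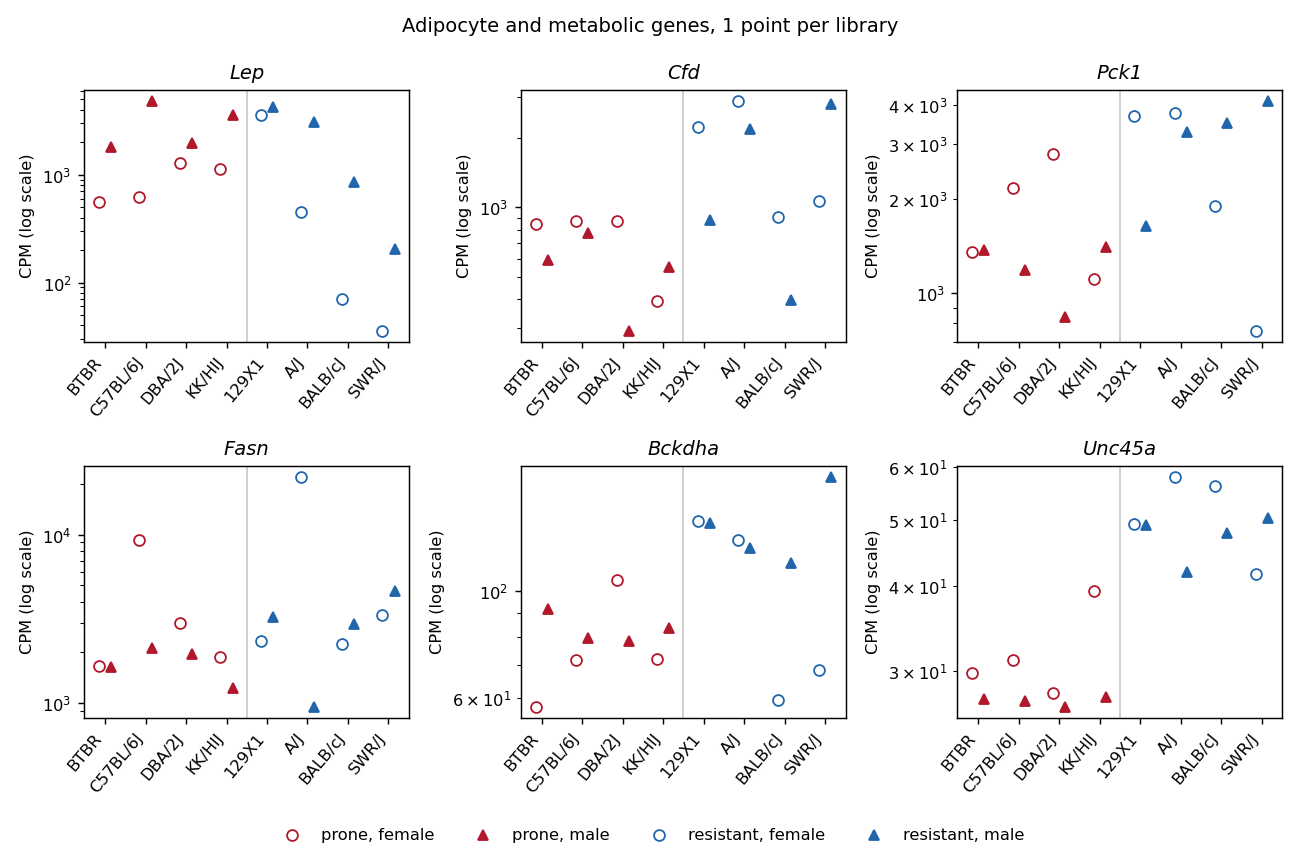
CPM on a log scale in each library of the 8 strains for *Lep*, *Cfd*, *Pck1*, *Fasn*, *Bckdha* and *Unc45a* (circles female, triangles male, red prone, blue resistant, left and right of the grey line). *Lep* in 129X1/SvJ lies among the highest points, and *Unc45a* separates the classes in both sexes.

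Several macrophage genes were higher in every prone male than in every resistant male, and none reached the adjusted threshold over strains. *Itgax*, which encodes the integrin CD11c of pro-inflammatory adipose macrophages, was at 56.6, 38.1, 87.8 and 381 CPM in the male libraries of BTBR T<+> tf/J, C57BL/6J, DBA/2J and KK/HlJ and at 26.6, 19.7, 10.53 and 8.93 CPM in those of 129X1/SvJ, A/J, BALB/cJ and SWR/J. Every prone male was above every resistant male, and the KK/HlJ male was the highest of all 74 male libraries of the series. In females the levels were 14.7, 11.2, 10.8 and 25.6 CPM against 13.6, 3.22, 15.6 and 15.6 CPM, which overlapped. *Lgals3*, which encodes galectin-3, was at 229 to 762 CPM in prone males against 31.3 to 162 CPM in resistant males. *Mmp12*, the macrophage metalloelastase, was at 115.7 to 739 CPM against 4.25 to 67.1 CPM in males. In females *Mmp12* was at 7.01 to 48.9 CPM against 2.54 to 32.2 CPM, with overlap. Over strains the differences were 2.34 ± 0.628 for *Itgax*, 1.81 ± 0.490 for *Lgals3* and 2.94 ± 0.808 for *Mmp12*, each with an adjusted p of 1 in edgeR. DESeq2 called *Mmp12* (adjusted p = 0.0340). *Mmp12* was named after its values were seen, as were *Cd68*, *Ctss* and *Cd300ld*.

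Of the 22 macrophage genes, 18 had a positive and 4 a negative log2FC, and the median was 0.53, beside −0.0078 over all genes. Strains did not overlap for 5 of the 22 (*Itgax*, *Lgals3*, *Mmp12*, *Cd68* and *Ctss*), all higher in prone strains, against 1.12% of all genes higher and 0.935% lower in this way. In males alone, 5 of the 22 were higher without overlap, against 1.94% of all genes higher and 1.85% lower. In females alone none was, against 0.487% of all genes higher. The median was 0.91 in males and 0.06 in females. The summed level of the 22 genes was 2224 to 6804 CPM in prone males and 1305 to 1710 CPM in resistant males, and 884 to 1862 against 952 to 1656 CPM in females. KK/HlJ carried much of the upper range. Without this strain the median over the list was 0.37, and the sums of the other 3 prone males, 2224 to 2644 CPM, were still above those of the 4 resistant males.

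*Cd300ld*, a receptor of myeloid cells, separated the classes in both sexes. It was at 6.06 to 13.95 CPM in prone against 1.10 to 4.29 CPM in resistant females and at 20.1 to 76.2 CPM in prone against 2.40 to 6.21 CPM in resistant males (log2FC 2.99 ± 0.474, adjusted p = 1 in edgeR and 4.65e-07 in DESeq2). *Trem2*, a lipid receptor that marks lipid-associated macrophages, did not follow the classes. It was at 8.86 to 59.6 CPM in prone males against 0.944 to 18.3 CPM in resistant males, and at 0.740 to 4.88 CPM against 0.798 to 20.3 CPM in females, where 129X1/SvJ was the highest. Its count equals that of a second gene identifier in every library of the series, so reads were shared out between identical sequences and its level is uncertain.

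**Figure D3:**
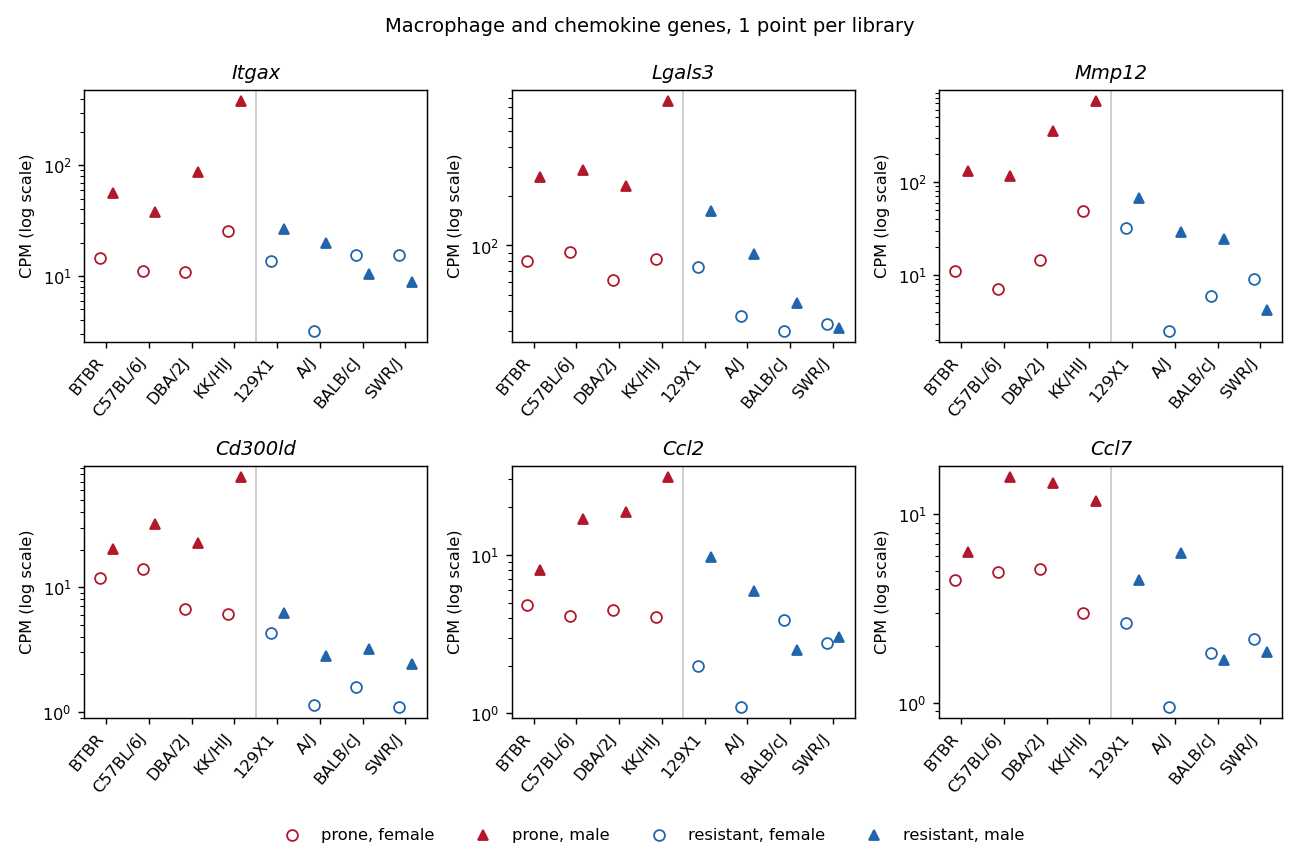
CPM on a log scale in each library of the 8 strains for the macrophage genes *Itgax*, *Lgals3*, *Mmp12* and *Cd300ld* and the chemokines *Ccl2* and *Ccl7* (circles female, triangles male, red prone, blue resistant). For *Itgax*, *Lgals3* and *Mmp12* the classes separate in males and overlap in females, and for *Cd300ld* they separate in both sexes.

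The monocyte chemoattractants *Ccl2* and *Ccl7* were the cytokine genes with the smallest p. *Ccl2* was at 4.82, 4.12, 4.50 and 4.06 CPM in the females of BTBR T<+> tf/J, C57BL/6J, DBA/2J and KK/HlJ and at 1.99, 1.10, 3.90 and 2.76 CPM in those of 129X1/SvJ, A/J, BALB/cJ and SWR/J. These ranges lie close to each other but did not overlap. In males it was at 8.01 to 30.98 CPM against 2.52 to 9.76 CPM, with overlap between BTBR T<+> tf/J and 129X1/SvJ. *Ccl7* did not overlap in either sex, with 3.003 to 5.12 against 0.955 to 2.645 CPM in females and 6.30 to 15.8 against 1.69 to 6.25 CPM in males. The log2FC were 1.52 ± 0.356 and 1.59 ± 0.348 (adjusted p = 1 in edgeR, 0.0324 and 0.0105 in DESeq2). Of 26 cytokine and chemokine genes none passed in edgeR, 21 had a positive log2FC, and the median was 0.48, or 0.18 without DBA/2J. The lymphocyte content of the pads varied widely. The 12 lymphocyte markers summed to 202 to 2272 CPM in prone and 38.6 to 2158 CPM in resistant libraries. Their median log2FC was −0.20, or −1.23 to 0.50 without 1 strain. The part of lymphocytes in the immune and cell cycle levels was not tested. The acute-phase gene *Saa3* was at 70.2 CPM in the C57BL/6J male and at 1.80 to 10.4 CPM in the other 7 males.

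Genes of the cell cycle had the highest median of the lists apart from skeletal muscle. All 12 proliferation genes had a positive log2FC, with a median of 0.92, and for 10 of the 12 the prone males lay above the resistant males without overlap, against 1.94% of all genes. In females this held for 0 of the 12, against 0.487% of all genes. The median was 1.13 in males and 0.80 in females. *Birc5*, which encodes survivin, was at 6.56 to 8.29 CPM in prone and 2.23 to 4.37 CPM in resistant males, and *Cdk1*, the mitotic kinase, at 9.81 to 11.6 CPM against 4.34 to 6.51 CPM. The differences over strains were 0.87 ± 0.382 and 0.86 ± 0.391, neither of which passed. The SWR/J female, at 10.4 CPM of *Birc5* and 14.8 CPM of *Cdk1*, lay within the range of the prone females. Mammary epithelium markers moved with the proliferation sum at its extremes in females, at 1948 CPM or more in KK/HlJ and SWR/J, which had the highest proliferation sums (354 and 245 CPM), and at 177 CPM in 129X1/SvJ, which had the lowest (19.5 CPM). At close mammary sums of 922 and 917 CPM, the BTBR T<+> tf/J and A/J females had proliferation sums of 199 and 42.3 CPM. In males the mammary markers summed to 0.601 to 3.64 CPM in prone and 1.60 to 31.6 CPM in resistant libraries. The part of mammary epithelium in the result was not tested. The summed level of the 12 genes was 121 to 191 CPM in prone against 40.7 to 90.9 CPM in resistant males, and 95.03 to 354 against 19.5 to 245 CPM in females. The macrophage sum was also higher in every prone male than in every resistant male. Within the prone males the sums ranked differently, as KK/HlJ had the highest macrophage sum (6804 CPM) and the lowest proliferation sum (121 CPM). The part of macrophages in the proliferation result was not tested. The 9 skeletal muscle genes tested had a median of 1.67 that was 0.10 without C57BL/6J, whose libraries had the highest sums of the muscle list, 102.2 and 178 CPM, against 4.30 to 35.4 CPM in the other 14. Of 20 interferon response genes, 19 had a positive log2FC, with a median of 0.29 that was 0.12 without 129X1/SvJ and 0.70 without BALB/cJ. Against 1.94% of all genes, 2 of the 20 separated the males, *Ifit3*, an antiviral effector (1.13 ± 0.466), and *Oas1a*, a sensor of viral RNA (0.89 ± 0.364).

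Metabolic genes had mostly negative differences. Sterol synthesis went the other way, with 16 of 24 genes positive and a median of 0.12 (0.03 to 0.19 without 1 strain). Its genes with the smallest p, *Fdft1* and *Hsd17b7*, differed by −0.39 ± 0.170 and 0.43 ± 0.227, and neither passed. *Pck1*, the glyceroneogenesis enzyme of adipocytes, was lower in every prone than in every resistant strain once the sexes were summed. It was at 839 to 1405 CPM in prone males against 1638 to 4123 CPM in resistant males, without overlap, and at 1114 to 2784 CPM against 759 to 3772 CPM in females, with overlap. The log2FC was −0.90 ± 0.232 (adjusted p = 1 in edgeR and 0.00496 in DESeq2). Of 13 triglyceride synthesis genes, 10 were negative and none passed, with a median of −0.25 that was 0.07 on log2(TPM + 1), where the median of all genes was 0.161. Without 129X1/SvJ it was −0.08.

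For de novo lipogenesis, the making of fatty acids from acetyl-CoA, 19 of 21 genes had a negative log2FC and the median was −0.55. Both A/J libraries stood apart in the summed level. The 21 genes summed to 139049 CPM in the A/J female and 105864 CPM in the A/J male, against 15614 to 53808 and 26142 to 31603 CPM in the other resistant females and males. Most of these A/J sums was *Scd1* alone, at 92860 CPM in the female and 102165 CPM in the male. In the male it made up nearly all of the sum, which therefore does not stand for the list as a whole. *Fasn*, the fatty acid synthase, was at 21944 CPM in the A/J female, the highest of all 67 females of the series, and at 2231 to 3340 CPM in the other 3 resistant females, while the A/J male was at 954 CPM, the lowest of the 16 libraries. Without A/J the median of the list was 0.05. *Fasn* differed by −0.89 ± 0.655, *Scd1*, the stearoyl-CoA desaturase, by −0.83 ± 0.7996, and *Mlxipl*, the carbohydrate-responsive factor ChREBP, by −0.77 ± 0.413. *Acacb*, which makes the malonyl-CoA that restrains fatty acid oxidation, was at 51.7 to 115 CPM in prone males against 130.7 to 320 CPM in resistant males, without overlap, and overlapped in females (−1.24 ± 0.530). None of these passed.

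Mitochondrial lists also had negative medians. All 23 branched-chain amino acid catabolism genes had a negative log2FC (median −0.25, and −0.37 to −0.12 without 1 strain), and 7 of them separated the males, against 1.85% of all genes lower in males in this way. In females 0 of them separated the classes, against 0.313% of all genes lower in this way. The median was −0.38 in males and −0.17 in females. On log2(TPM + 1) the median over strains was 0.0059 and stayed below the 0.161 of all genes. *Bckdha*, a subunit of the dehydrogenase that commits branched-chain keto acids to oxidation, was at 91.7, 79.8, 78.5 and 83.6 CPM in the prone males and at 138.4, 122.5 and 172.1 CPM in the males of 129X1/SvJ, A/J and SWR/J. The BALB/cJ male was the lowest resistant male and still above every prone male. In females it was at 57.5 to 105.2 CPM against 59.4 to 140 CPM, with overlap (−0.56 ± 0.164 over strains, adjusted p = 1). *Ivd*, which oxidises isovaleryl-CoA from leucine, was at 116.2 to 184 CPM in prone against 232 to 305 CPM in resistant males (−0.51 ± 0.175).

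Of 24 fatty acid oxidation genes, 23 were negative (median −0.29), with *Acot2* at −0.42 ± 0.162 and *Echs1* at −0.40 ± 0.160. Of 74 nuclear oxidative phosphorylation (OXPHOS) genes, 70 were negative (median −0.23) and 13 separated the males, against 1.85% of all genes lower in males in this way. In females 0 of the 74 separated the classes, against 0.313% of all genes. The OXPHOS median was −0.33 in males and −0.13 in females. The complex I subunit gene *Ndufs7* and the ATP synthase subunit gene *Atp5d* had the smallest p (−0.32 ± 0.113 and −0.29 ± 0.112). The 13 mitochondrially encoded genes had a median of −0.45, or −0.62 in males and −0.26 in females. Of these genes, 5 separated the males and 0 the females. Their share of all counts was 8.19 ± 1.16% in prone and 10.4 ± 1.83% in resistant strains (SD, n = 4 strains each, exact permutation p = 0.0857, two-sided), with 6.52 to 8.58% in prone and 7.39 to 16.8% in resistant males. With these genes left out of the scaling, the OXPHOS median was −0.23 and the branched-chain amino acid median −0.26. On log2(TPM + 1) the OXPHOS median was −0.0073 and the fatty acid oxidation median −0.03, beside 0.161 over all genes.

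**Figure D4:**
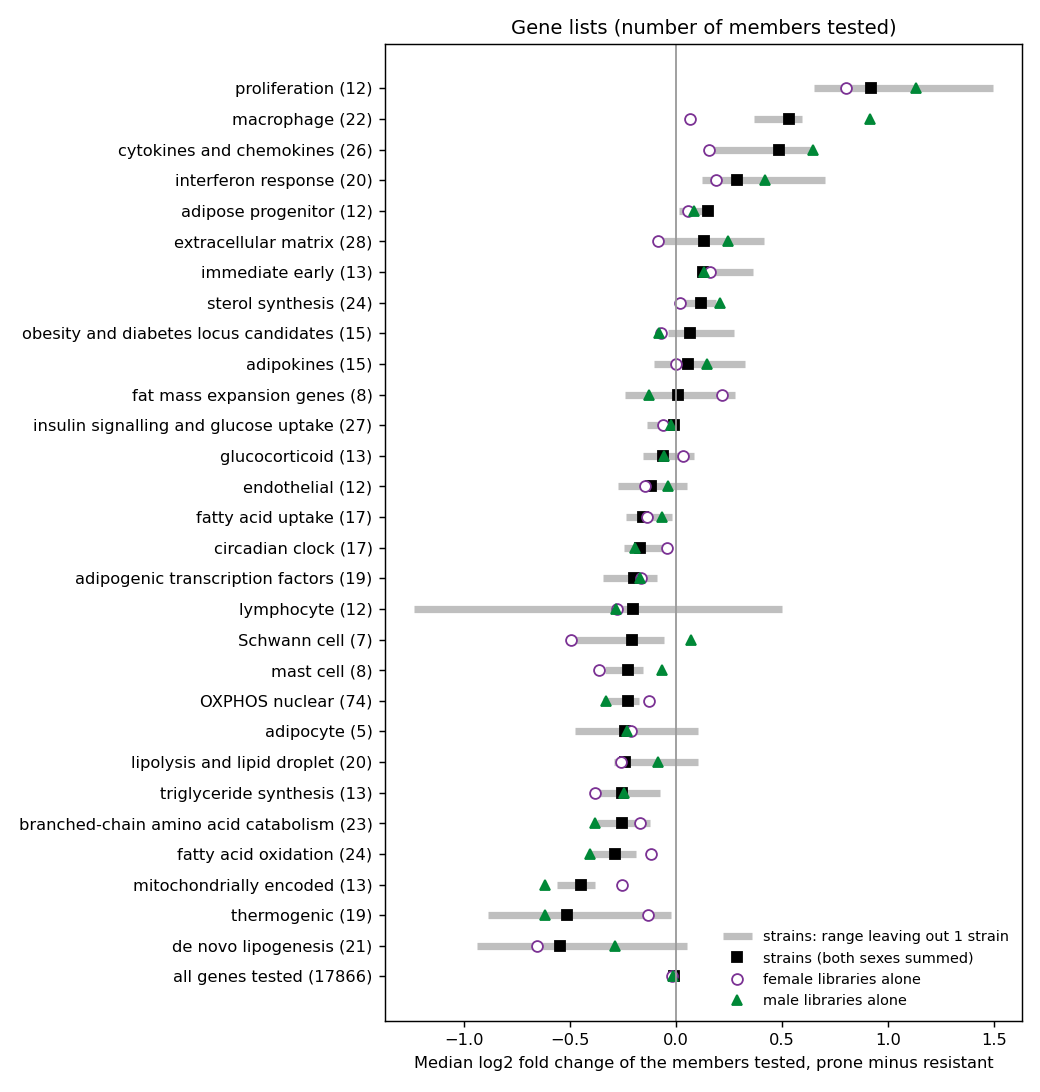
Median log2 fold change (prone minus resistant) over the tested members of each gene list and over all genes tested, for strains (black squares, with the range over fits that leave out 1 strain in grey), females alone (open circles) and males alone (triangles). Mammary epithelium, skeletal muscle, Y-linked and strain allele lists are not drawn. Macrophage and cytokine medians lie right of 0 and most metabolic medians left of it. Among metabolic and adipocyte lists left of 0, the grey bars of de novo lipogenesis, lipolysis and lipid droplet, and adipocyte genes reach past 0. That of insulin signalling and glucose uptake only just does.

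Thermogenic genes turned on single strains. *Ucp1*, the uncoupling protein of brown and beige fat, was at 276 and 293 CPM in DBA/2J, counted as prone, and at 0.601 to 36.4 CPM in the other 6 prone libraries. Among resistant libraries it was at 651 CPM in the SWR/J male, at 157.9 CPM in the 129X1/SvJ male and at 4.66 to 96.1 CPM in the rest (log2FC −0.51 ± 1.46). The median over 19 thermogenic genes was −0.51, and it was −0.02 without SWR/J. *Zic1*, a marker of classical brown fat, was at 0.854 to 1.92 CPM in prone and 0.982 to 2.72 CPM in resistant libraries (−0.80 ± 0.323).

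Genes of adipocyte identity and insulin action had medians near 0 or weakly negative. *Pparg*, the master factor of adipogenesis, differed by −0.13 ± 0.365, *Slc2a4*, the insulin-responsive glucose transporter, by −0.28 ± 0.344, *Insr*, the insulin receptor, by −0.19 ± 0.167, and *Pnpla2*, the triglyceride lipase ATGL, by −0.46 ± 0.264. On log2(TPM + 1) the first 3 were positive, at 0.20, 0.09 and 0.04. With these errors (the median SE over all genes was 0.273), differences of this size could not be told from 0 with 4 strains a class. The median was −0.01 over 27 insulin signalling and glucose uptake genes, −0.20 over 19 adipogenic factors and −0.24 over 20 lipolysis and lipid droplet genes, and the last 2 were 0.10 and 0.09 on log2(TPM + 1). Without 129X1/SvJ they were −0.09 and 0.10. *Pnpla2* separated the males, at 981 to 1271 CPM in prone against 1493 to 1832 CPM in resistant libraries.

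Whether the class difference itself differed between the sexes was tested as a class by sex term with the strain as a block. The p-values of this term measure the spread that remains within strains. Of 17581 genes, 0% passed in edgeR and 0 in DESeq2, and 1.9% had an unadjusted p under 0.05. For 20 of the 22 macrophage genes the class difference was smaller in females than in males (median of the term −0.88, beside 0.02 over all genes). The term was below 0 for only 2 of 74 OXPHOS, 1 of 23 branched-chain amino acid and 1 of 13 mitochondrially encoded genes. Its medians in these lists were 0.20, 0.33 and 0.40. A term above 0 stands here for a less negative class difference in females. *Trem2* had a term of −2.59 ± 0.636 and *Gpnmb*, a lysosomal glycoprotein of lipid-laden macrophages that carries a truncating allele in DBA/2J, of −2.12 ± 0.525. For *Itgax* it was −2.15 ± 0.833, for *Lgals3* −1.38 ± 0.426 and for *Mmp12* −2.61 ± 0.863, each with an adjusted p of 1. The larger male differences above are therefore a description of these 16 libraries and were not shown to differ by sex.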

How the data were processed

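Poly(A)-selected, stranded RNA-seq libraries of iWAT from 8 strains on the HF/HS diet were analysed, 1 of each sex per strain; each carries 1 mouse number. The authors quantified reads with kallisto (0.46.1) against an Ensembl transcriptome on mm10 (GRCm38) and deposited estimated counts and TPM per gene. Estimated counts were rounded. Of 36558 gene identifiers, 35935 were paired with a GENCODE M21 symbol, and coordinates and transcript sequences are from that annotation. The female and male counts of each strain were summed and tested with edgeR 4.0.16 (R 4.3.3, TMM, filterByExpr, quasi-likelihood test, Benjamini-Hochberg over all 17866 genes, adjusted p under 0.05). The test was also run on simulated counts, with large changes in highly counted genes and less spread between samples than in these data. Such a run does not show how well smaller differences would be found here. The paper's model with strain and sex cannot test a property of strains. Sex-specific differences used ~ Strain + Sex + Class:Sex. Recombinant strains were tested in the same way. Alternatives used limma 3.58.1, DESeq2 1.42.0, log2(TPM + 1) and log2(TPM + 0.1) of the deposited TPM, single sexes, other scalings and filters, and leaving out each strain. CPM of single libraries are TMM-scaled over the 16 libraries, and the scale over all 141 is named where used.

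Strains, members and lists were chosen with earlier results of these data known. Named genes were the 12 largest called changes per direction (excluding Gm and Rik names), up to 6 called members per list or else the 2 with the smallest p, and 15 index genes. *Gm12191*, *Rpl30*, *Unc45a*, *Cd300ld*, *Mmp12*, *Cfd*, *Cd68* and *Ctss* were named after their values were seen. Among tested genes, 409 have counts identical to another gene in all 16 libraries. SE is the log2FC divided by the root of its F statistic. Exact permutation tests over strains have 70 arrangements and a smallest two-sided p of 0.0286.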

Additional observations from a re-analysis of the deposited data

Results flagged for a closer look

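In groups of 4 libraries of a class and sex, 38 of 304 combinations of gene and group held 1 library far from the other 3 by Dixon's criterion. For normally distributed values chance gives this in about 1 in 20. CPM were not shown to be so distributed, and some genes were named for their values. The share that chance gives here is therefore not known, and no excess over it was shown. The 129X1/SvJ female stood apart from the other 3 resistant females for *Acta1* 12.5 CPM against 0.6252 to 1.253, *Cd300ld* 4.293 CPM against 1.104 to 1.578, *Gpnmb* 54.2 CPM against 6.073 to 9.697, *Lep* 3576 CPM against 35.83 to 446.5, *Lgals3* 73.46 CPM against 30.19 to 37.18, *Pvalb* 0.103 CPM against 0, *Sfrp5* 363.4 CPM against 2.638 to 12.89, *Trem2* 20.33 CPM against 0.7977 to 2.924 and *Zbtb16* 251 CPM against 22.12 to 53.91. The library of the 129X1/SvJ male stood apart from the other 3 resistant males for *Fkbp5* 178.5 CPM against 35.13 to 54.84, *Krt14* 1.279 CPM against 0 to 0.03934, *Krt5* 1.685 CPM against 0 to 0.1964 and *Saa3* 9.203 CPM against 1.8 to 3.029. The A/J female stood apart from the other 3 resistant females for *Agpat2* 958.2 CPM against 134.6 to 272.5, *Fasn* 21944 CPM against 2231 to 3340 and *Itgax* 3.222 CPM against 13.63 to 15.6. The library of the A/J male stood apart from the other 3 resistant males for *Pik3r3* 36.69 CPM against 18.33 to 20.49, *Scd1* 102165 CPM against 18962 to 23393 and *Thbs1* 206.5 CPM against 9.257 to 34.82. The BTBR T<+> tf/J male stood apart from the other 3 prone males for *Krt14* 0.09497 CPM against 0. The library of the C57BL/6J female stood apart from the other 3 prone females for *Apoa2* 1.198 CPM against 0.03909 to 0.2061 and *Pvalb* 3.946 CPM against 0.05637 to 0.1173. The C57BL/6J male stood apart from the other 3 prone males for *Acta1* 57.42 CPM against 8.547 to 15.86, *Krt5* 0.03755 CPM against 0, *Pvalb* 11.87 CPM against 0.06331 to 1.165 and *Saa3* 70.15 CPM against 4.495 to 10.37. The library of the DBA/2J female stood apart from the other 3 prone females for *Mest* 1011 CPM against 54.16 to 120.6, *Sfrp5* 164.3 CPM against 12.4 to 37.83, *Slc27a2* 3.518 CPM against 0.2819 to 0.6482 and *Ucp1* 276.2 CPM against 1.586 to 24.52. The DBA/2J male stood apart from the other 3 prone males for *Ucp1* 293.4 CPM against 0.6009 to 36.39. The library of the KK/HlJ female stood apart from the other 3 prone females for *Cfd* 395.6 CPM against 843.4 to 872.8. The KK/HlJ male stood apart from the other 3 prone males for *Gpnmb* 1301 CPM against 14.18 to 129.6, *Itgax* 381 CPM against 38.12 to 87.81, *Lgals3* 761.9 CPM against 229.4 to 290.9 and *Trem2* 59.64 CPM against 8.863 to 16.77. The library of the SWR/J female stood apart from the other 3 resistant females for *Apln* 17.3 CPM against 3.371 to 4.224. The SWR/J male stood apart from the other 3 resistant males for *Slc27a2* 26.28 CPM against 0.09359 to 1.211.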

How the results depend on the processing

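The 1 gene lower in the prone strains, *Gm12191*, became 0 genes in females alone, in males alone, with library totals, when every library had to hold at least 10 counts, on log2(TPM + 0.1), with *Rpl30* and *Gm12191* summed, and 0 to 1 without 1 strain, where 1 remained only without DBA/2J. DESeq2 called 17 genes higher and 11 lower, and libraries as replicates 2 higher and 2 lower. The filter removed *Gm12191* before testing, since the C57BL/6J male had 0 counts of it, and the sum replaced it, so neither tested it. Single sexes and left-out strains have fewer samples, and libraries as replicates count each strain more than once. For the other settings the cause was not tested. No gene passed the class by sex term with the strain as a block, and 0 passed without this replicate block. The BXD comparison called 595 genes, 1283 with libraries as replicates and 64 with CXB alone, which has 3 strains. Of 1623 values of 78 named genes under alternatives, 38 had another sign, in 17 genes, none of them called. On log2(TPM + 1) and log2(TPM + 0.1) these were *Adipoq* 0.04806 and 0.04816, *Fabp4* 0.03151 in both, *Insr* 0.03551 and 0.03671, *Ncmap* 0.04768 and 0.06049, *Plin1* 0.07897 and 0.07937, *Pparg* 0.2046 and 0.2069, *Sfrp5* 0.5397 and 0.6311, and *Slc2a4* 0.09211 and 0.09513. With limma-voom they were *Pparg* 0.01655 and *Sfrp5* 0.4886, with equal weight of the sexes *Pparg* 0.01144, *Sfrp5* 0.4356 and *Krt5* −0.18, with library totals *Pparg* 0.0216, and with libraries as replicates *Krt14* −0.4648 and *Krt5* −0.4884. In females alone they were *Lep* −0.2005, *Trem2* −1.179 and *Ucp1* 0.5726. Without 1 strain, the log2FC ranged from −0.5385 to 0.08314 for *Adipoq*, −1.52 to 0.007781 for *Cr2*, −0.102 to 1.362 for *Lep*, −0.1287 to 0.4334 for *Nnt*, −0.5445 to 0.1045 for *Plin1*, −0.3357 to 0.1556 for *Pparg*, −1.138 to 0.05197 for *Scd1*, −2.806 to 0.648 for *Ucp1*, −1.025 to 0.08518 for *Zbtb16*. The median of all genes moved to 0.0796 with library totals, 0.161 on log2(TPM + 1) and 0.203 on log2(TPM + 0.1). With 4 strains a class, the median SE of 0.273 on the log2 scale limited which differences could pass.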
